A study of Mus musculus with 6 samples.

Results

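The genes described here encode the machinery that brings newly made secretory proteins into the endoplasmic reticulum (ER) and carries them on to the Golgi apparatus. In this route the signal recognition particle (SRP) binds the signal peptide of a growing protein and docks the ribosome at the ER, the SEC61 channel passes the chain into the ER, and signal peptidase removes the signal peptide. COPII-coated vesicles, loaded by cargo receptors, then leave the ER for the Golgi, and COPI-coated vesicles return receptors to the ER together with escaped ER residents, which KDEL receptors catch. Hepatocytes, which release albumin, clotting factors and lipoproteins into the blood, depend heavily on this route. The members were the genes of these named complexes, and the list was chosen with earlier results of these data known. The shares below are therefore not from a list set independently of the data. Of 48 named genes, 47 had a probe set of their own among the 22180 genes measured. Srp54a, the signal-binding SRP subunit, was read by 2 probe sets shared with Srp54b and Srp54c and was left out.

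Livers of Balb/cBy mice were compared with livers of Balb/c mice, a closely related substrain. Both groups were males, 20 weeks old when sampled. They had eaten a diet with 58% of its energy as fat for 12 weeks, from the age of 8 weeks, and no group on another diet is analysed here. Each group held 3 arrays, 1 per biological replicate. The labels call Balb/cBy "KD" and Balb/c "WT" and name no gene for the term. BALB/cBy mice are known to carry a deletion in Acads, a gene of mitochondrial fatty acid oxidation, and Acads read 10.60, 10.79 and 10.93 in Balb/cBy against 11.53, 11.46 and 11.28 in Balb/c, without overlap (limma adjusted p 0.319). All levels are log2 RMA values, and differences are the Balb/cBy mean less the Balb/c mean on that scale, with the standard error (SE) from limma.

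The liver label fitted the markers, since all 10 hepatocyte markers were read, at a mean level of 13.05 to 13.13 in Balb/cBy and 13.01 to 13.12 in Balb/c. The arrays correlated with each other at 0.977 to 0.991, within and between groups alike. Limma gave Balb/cBy replicate 1 the lowest array weight (0.471) and Balb/c replicate 3 the next lowest (0.635), a weight being smaller where an array departs more from its group. In bulk tissue, fewer cells of a type and less RNA per cell cannot be told apart. The number of arrays limits the precision.

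Most of the pathway's genes read slightly higher in Balb/cBy, and none by enough to pass the test. Of the 47 members, 39 had a higher mean in Balb/cBy and 8 a lower mean, a share of 83% higher against 49.1% of all 22180 genes. The median difference was 0.169 (range -0.23 to 0.49), against -0.00282 over all genes. With limma and Benjamini-Hochberg adjustment over 23521 probe sets, 0 members passed the adjusted threshold of 0.05 in either direction, and 0% of all probe sets did. The smallest adjusted p of a member was 0.47, for Surf4, and the smallest of any probe set was 0.177. At an unadjusted limma p under 0.05, 9 members were higher, or 19.1% of them, against 2.59% of all genes. None was lower at that level, against 1.15% of all genes. The groups did not overlap for 10 members higher in Balb/cBy, against 4.32% of all genes, and for 1 lower, against 3.51%. After median centring of the arrays, 7 higher and 0 lower did not overlap, since Srprb, Sec23b, Kdelr1 and Srp9 then overlapped, against 4.42% and 3.49% of all probe sets. The members read brighter than most genes, so a fit was also made on the brighter probe sets only. These had a mean level at or above the median of all fitted probe sets. There 8 of 45 members were higher at an unadjusted limma p under 0.05, against 3.34% of those probe sets. The median difference was 0.174 for these members and 0.0198 for all those probe sets. Those probe sets were not matched to the members in level, so this fit does not set brightness equal.

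The 47 members were read on the same 6 arrays, and 2 arrays stood at the ends for many of them at once. The mean level over the 47 members was 10.38, 10.48 and 10.35 on the Balb/cBy arrays and 10.34, 10.11 and 10.32 on the Balb/c arrays, so the groups did not overlap but Balb/cBy replicate 3 and Balb/c replicate 1 differed by 0.01. Balb/c replicate 2 was the lowest of the 6 arrays for 28 members, and Balb/cBy replicate 2 was the highest for 23. Without Balb/c replicate 2 the median difference was 0.109, and without Balb/cBy replicate 2 it was 0.0889. With array weights it was 0.0988, and after a repeated quantile normalization 0.110. The count higher at an unadjusted p under 0.05 was 7 without Balb/c replicate 2, where 1.51% of all probe sets were, and 3 without Balb/cBy replicate 2, where 1.3% were. The mean over all 22180 genes lay between 8.04 and 8.07 on every array. Within groups, the SD between animals had a median of 0.170 over members and 0.142 over all genes.

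**Figure D1:**
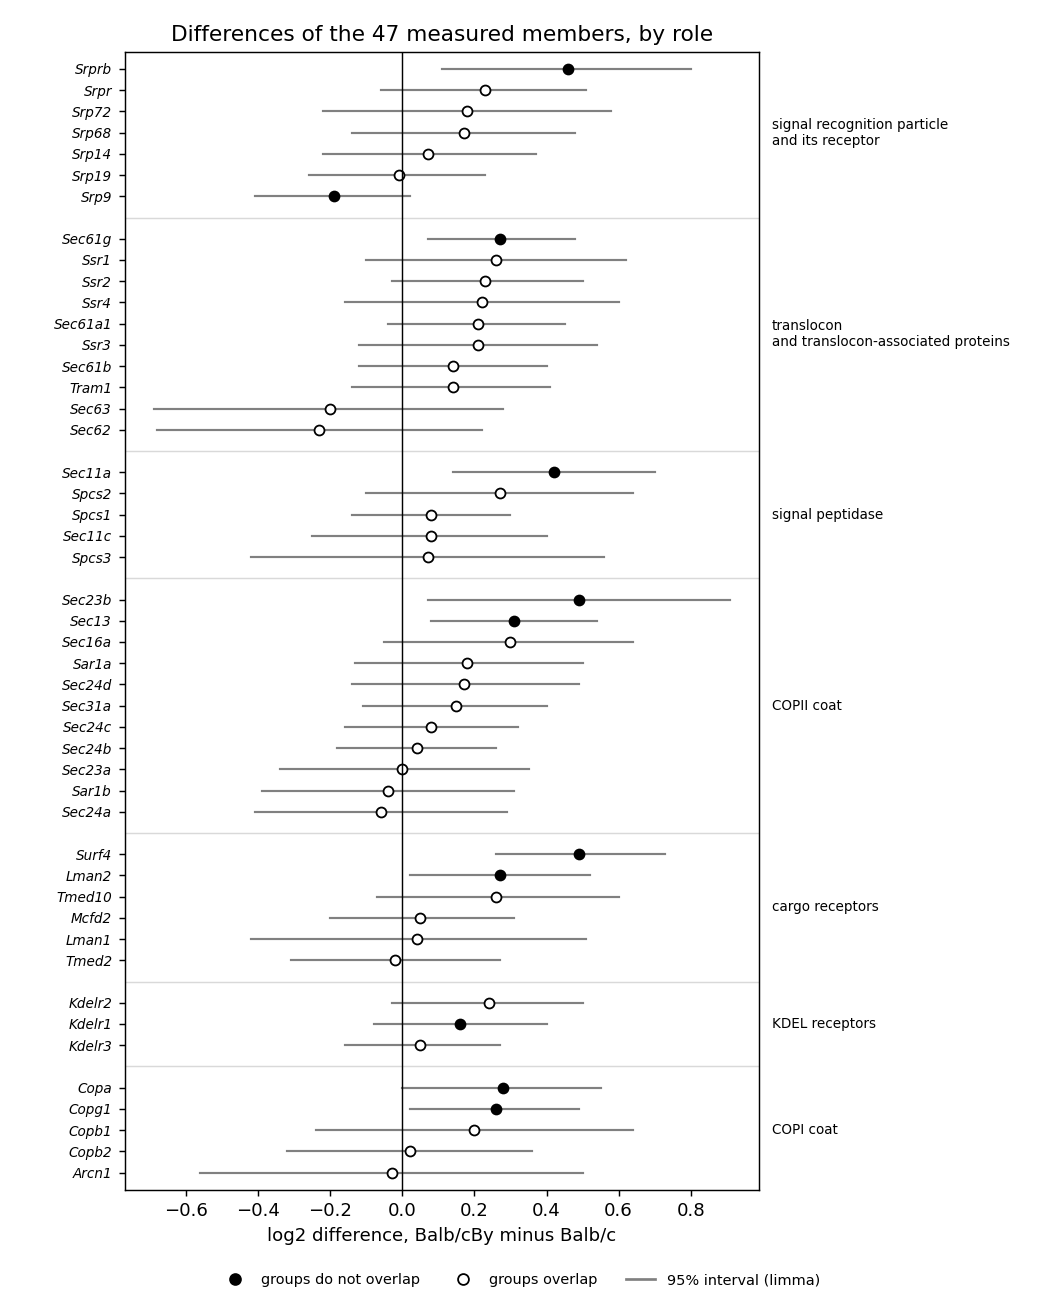
Difference of each of the 47 measured members (log2, Balb/cBy less Balb/c), by role, with limma's 95% interval. Filled points mark the 11 members whose groups do not overlap. Most points lie right of 0, with Surf4 and Sec23b at 0.49 and Sec62 at -0.23 at the ends.

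Targeting to the ER came out mixed. Of the 7 measured genes of the signal recognition particle and its receptor, 5 were higher in Balb/cBy, with a median difference of 0.169. Srprb, the membrane-anchored beta subunit of the SRP receptor, read 9.59, 10.11 and 9.95 in Balb/cBy and 9.57, 9.45 and 9.26 in Balb/c. The groups did not overlap, but Balb/cBy replicate 1 lay only 0.02 above the highest Balb/c array. The difference was 0.46 ± 0.15 (SE), 1.37-fold, with a limma adjusted p of 0.999. A further probe set that the annotation gives to both Trf and Srprb differed by -0.01. Srpr, the alpha subunit of the same receptor, read 11.92, 12.02 and 11.87 in Balb/cBy and 11.88, 11.47 and 11.77 in Balb/c. Here the groups overlapped, with Balb/c replicate 2 lowest, and the difference was 0.23 ± 0.12 (SE).

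Srp9, which with Srp14 forms the part of the particle that slows translation, ran the other way. It read 9.07, 9.05 and 9.14 in Balb/cBy and 9.38, 9.17 and 9.29 in Balb/c, a difference of -0.19 ± 0.10 (SE; limma adjusted p 0.999). It was the only member with no overlap and the lower level in Balb/cBy, and after median centring its groups overlapped too. Its partner Srp14 differed by 0.07 ± 0.13 (SE). Srp68 and Srp72, which bind each other within the particle, differed by 0.17 ± 0.13 and 0.18 ± 0.17 (SE), and Srp19, which helps to assemble the particle, by -0.01 ± 0.11. Srp19 lay under 8.02, the 95th percentile of the mean levels of 1105 olfactory receptor genes, used as a stand-in for background, as did Sec61b. No other measured member did.

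At the translocon, the channel subunits and their associated complex read higher in Balb/cBy, and the SEC62-SEC63 pair read lower. Of 10 genes, 8 were higher, with a median difference of 0.207. Sec61g, the small gamma subunit of the channel, read 11.33, 11.32 and 11.24 in Balb/cBy against 10.97, 11.11 and 10.99 in Balb/c. All Balb/cBy arrays lay above all Balb/c arrays, by 0.27 ± 0.09 (SE; 1.21-fold, limma adjusted p 0.999). A probe set shared by Sec61g and 4 predicted genes differed by 0.11. Sec61a1, the pore-forming subunit, read 12.20, 12.15 and 12.07 in Balb/cBy and 12.11, 11.89 and 11.80 in Balb/c, with overlap through Balb/c replicate 1 and a difference of 0.21 ± 0.11 (SE). Sec61b, the beta subunit, differed by 0.14 ± 0.11 (SE).

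The 4 genes of the translocon-associated protein complex, Ssr1 to Ssr4, which helps some signal peptides to enter the channel, differed by 0.21 to 0.26, all with overlapping groups. Ssr2 read 12.25, 12.40 and 12.22 in Balb/cBy and 12.25, 11.93 and 11.98 in Balb/c. Ssr1 read 10.43, 10.48 and 10.07 in Balb/cBy and 10.31, 9.83 and 10.07 in Balb/c, and its second, dimmer probe set differed by 0.08 ± 0.16 (SE). In each of these genes Balb/c replicate 1 reached into the Balb/cBy range. Ssr3 read 9.97, 9.88 and 9.50 in Balb/cBy and 9.69, 9.42 and 9.61 in Balb/c, so Balb/cBy replicate 3 fell among the Balb/c arrays. Tram1, a membrane protein beside the channel, differed by 0.14 ± 0.12 (SE).

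Sec62 and Sec63 help proteins that are inserted after translation, and Sec63 brings the chaperone BiP to the channel. Sec62 read 9.13, 9.30 and 9.29 in Balb/cBy and 9.20, 9.25 and 9.96 in Balb/c. Sec63 read 10.44, 10.02 and 10.05 in Balb/cBy and 10.19, 10.09 and 10.85 in Balb/c. In both genes Balb/c replicate 3 stood above the other 5 arrays. The differences of -0.23 ± 0.19 and -0.20 ± 0.21 (SE) turned to 0.0135 for Sec62 and 0.0318 for Sec63 without that array.

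All 5 signal peptidase genes had a higher mean in Balb/cBy, with a median difference of 0.0795. The one that stood apart was Sec11a, a catalytic subunit, at 9.56, 9.59 and 9.42 in Balb/cBy and 9.15, 8.88 and 9.29 in Balb/c. The groups did not overlap, and the difference was 0.42 ± 0.12 (SE; 95% interval 0.14 to 0.70), 1.34-fold, with a limma adjusted p of 0.999. Sec11c, the alternative catalytic subunit, differed by 0.08 ± 0.14 (SE). Among the accessory subunits, Spcs2 read 11.64, 11.22 and 11.14 in Balb/cBy and 11.29, 10.89 and 11.01 in Balb/c, and its second probe set gave the like value of 0.26 ± 0.17 (SE) against 0.27 ± 0.16. Spcs1 differed by 0.08 and Spcs3 by 0.07, both with overlap.

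**Figure D2:**
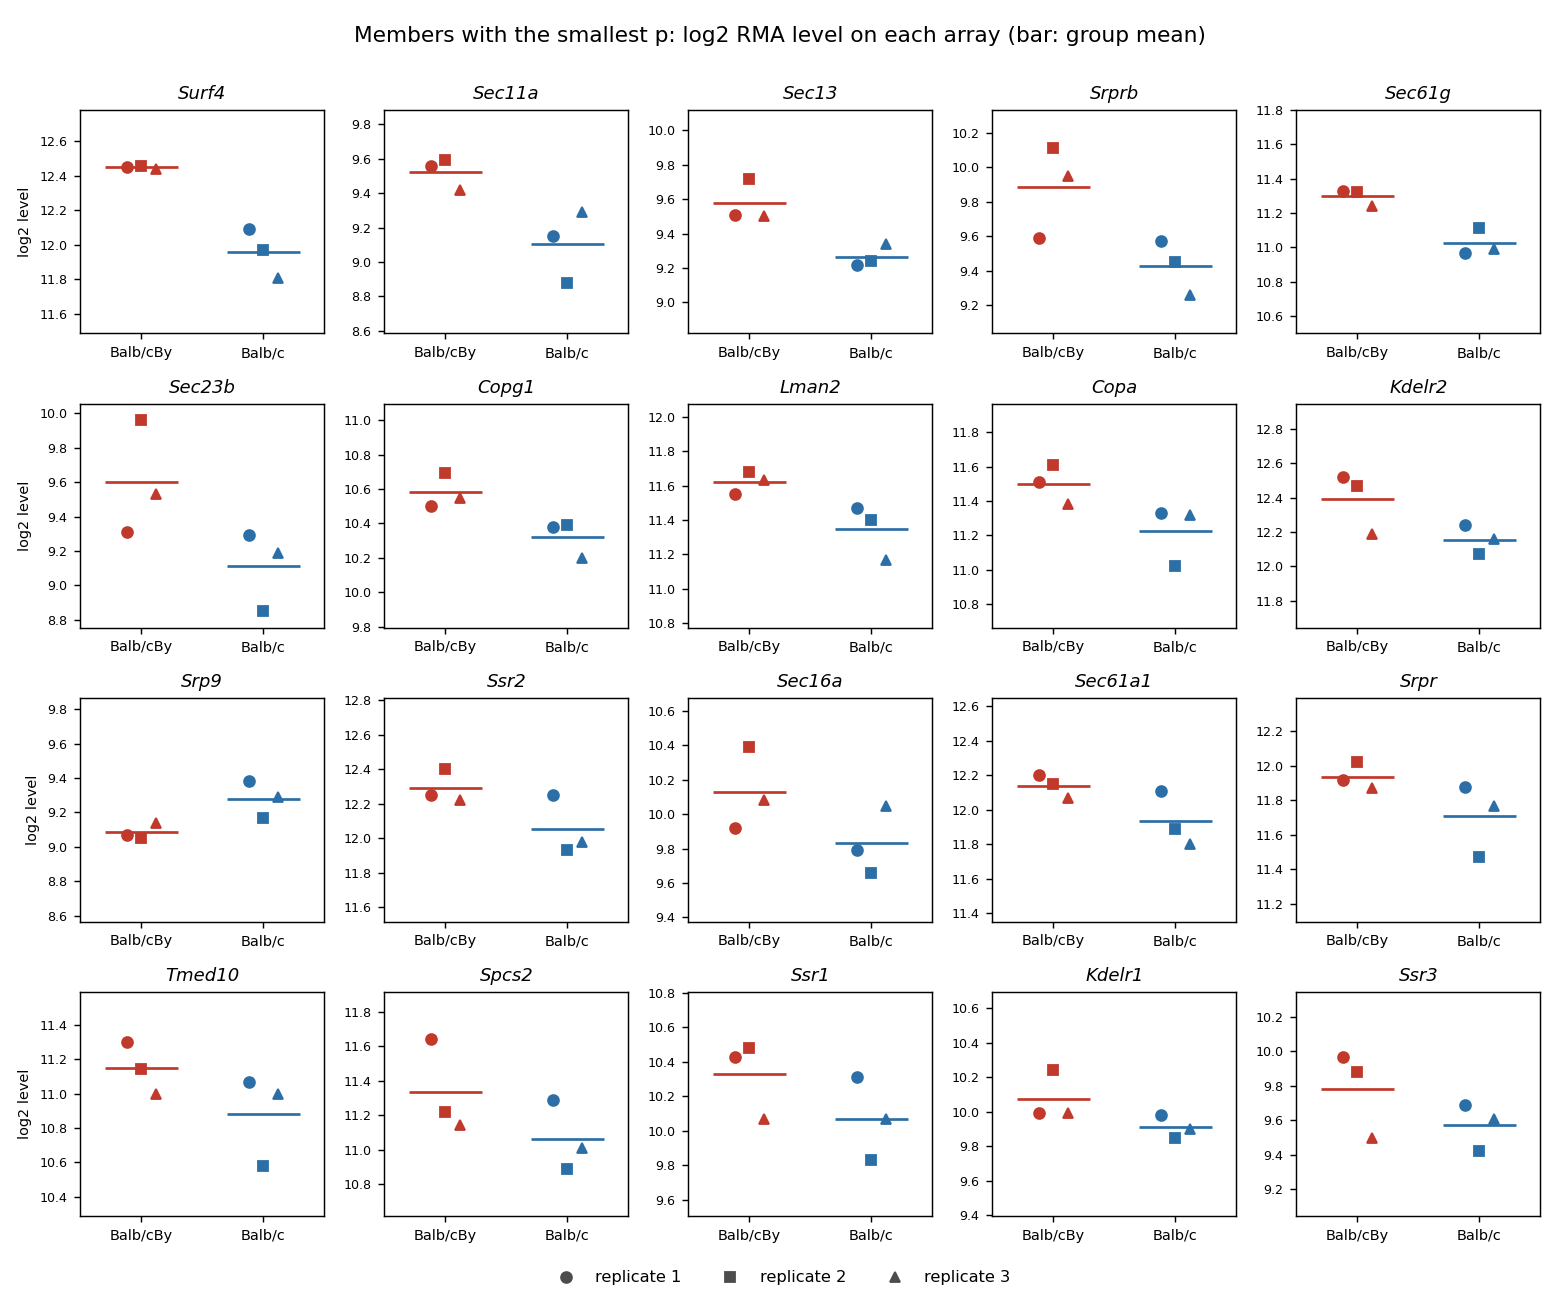
Log2 RMA level on each array for the 20 members with the smallest limma p. Each panel has its own log2 axis, points are single arrays shaped by replicate number, and bars are group means (n = 3 arrays each). Surf4 has its 3 Balb/cBy arrays within 0.02 of each other and above all Balb/c arrays, while Srp9 has all its Balb/cBy arrays below.

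Of 11 COPII genes, 9 were higher in Balb/cBy, with a median difference of 0.147, and the inner and outer coat each held a member without overlap. Sec23b, an inner coat subunit and GTPase-activating protein for SAR1, read 9.31, 9.96 and 9.53 in Balb/cBy and 9.29, 8.85 and 9.19 in Balb/c. Balb/cBy replicate 1 lay only 0.02 above the highest Balb/c array, and the difference was 0.49 ± 0.18 (SE; 1.40-fold, 95% interval on the log2 scale 0.07 to 0.91). Its paralog Sec23a had a difference of 0.00 ± 0.15 (SE). Sec13, a subunit of the outer cage that also serves in nuclear pores, read 9.51, 9.72 and 9.50 in Balb/cBy and 9.22, 9.24 and 9.34 in Balb/c, clear of each other by 0.16, and the difference was 0.31 ± 0.10 (SE). The limma adjusted p of Sec23b and Sec13 was 0.999.

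Sec16a, which marks the exit sites where coats assemble, read 9.92, 10.39 and 10.08 in Balb/cBy and 9.79, 9.66 and 10.05 in Balb/c, a difference of 0.30 ± 0.15 (SE) with overlap. Sec31a, the partner of Sec13 in the cage, differed by 0.15 ± 0.11 (SE). The GTPases that start the coat differed by 0.18 ± 0.14 (Sar1a) and -0.04 ± 0.15 (Sar1b, known in humans for the secretion of dietary fat). The cargo-binding Sec24 genes lay between -0.06 (Sec24a) and 0.17 (Sec24d), with Sec24b at 0.04 and Sec24c at 0.08, and overlapped in every case.

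Related members were also set against each other within each array, which removes any shift that both genes share. Of 12 such pairs, chosen after the data were seen, 2 had groups that did not overlap. The log2 level of Sec23b minus that of Sec23a was -1.63, -1.28 and -1.61 in Balb/cBy and -1.88, -1.96 and -2.15 in Balb/c, a change in the ratio of 0.49. Sec11a minus Sec11c was 1.03, 0.93 and 1.11 in Balb/cBy and 0.56, 0.71 and 0.77 in Balb/c, a change of 0.34. For each the two-sided exact permutation p was 0.1, the smallest that 3 against 3 arrays allow, and 0.6 after adjustment over the 12 pairs. The 10 remaining pairs, among the Sar1, Sec24 and KDEL receptor genes, overlapped. Several pairs share a gene, and Sec23b and Sec11a were already among the members without overlap. The share without overlap over other gene pairs was not computed, so the count of 2 has no background beside it. Levels of different probe sets are not on a common scale, so only the change of such a ratio between groups is read.

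Among the cargo receptors, which pick proteins for export, 5 of 6 were higher in Balb/cBy, with a median difference of 0.159. Surf4, a receptor for many soluble cargoes that in mouse liver is needed to secrete lipoproteins, had the smallest p of all members. It read 12.45, 12.46 and 12.44 in Balb/cBy and 12.09, 11.97 and 11.81 in Balb/c. The Balb/cBy arrays were nearly equal, and the nearest Balb/c array lay 0.35 below them. The difference was 0.49 ± 0.10 (SE; 95% interval 0.26 to 0.73), 1.41-fold, with a limma adjusted p of 0.47, and 270th of 22180 genes by the absolute size of the difference. With array weights the adjusted p was 0.285, the lowest that any member reached under 15 alternatives.

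Lman2, a lectin that binds glycoproteins on the early secretory route, read 11.55, 11.68 and 11.63 in Balb/cBy and 11.47, 11.40 and 11.17 in Balb/c. The groups did not overlap, and the difference was 0.27 ± 0.11 (SE; limma adjusted p 0.999). Its relative Lman1 and the Lman1 cofactor Mcfd2, which together carry clotting factors V and VIII, differed by only 0.04 ± 0.20 and 0.05 ± 0.11 (SE). Of the p24 family, Tmed10 read 11.30, 11.14 and 11.00 in Balb/cBy and 11.07, 10.58 and 11.00 in Balb/c, a difference of 0.26 ± 0.15 (SE), while its 2 dimmer probe sets gave 0.03 and 0.28. Tmed2 differed by -0.02 ± 0.13 (SE), and its second probe set by -0.24 ± 0.12. The gene table lists Tmed2 also as a synonym of Gm10698, so which locus those probe sets read is uncertain.

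The 3 KDEL receptors, which catch escaped ER residents by their tail sequence, were all higher on average in Balb/cBy, with a median difference of 0.161, and none reached an unadjusted p under 0.05. Kdelr2 read 12.52, 12.47 and 12.19 in Balb/cBy and 12.24, 12.07 and 12.16 in Balb/c, so Balb/cBy replicate 3 fell among the Balb/c arrays and the difference was 0.24 ± 0.12 (SE). Kdelr1 read 9.99, 10.24 and 9.99 in Balb/cBy and 9.98, 9.85 and 9.90 in Balb/c, without overlap but with Balb/cBy replicates 1 and 3 barely above Balb/c replicate 1, and differed by 0.16 ± 0.10 (SE). Kdelr3 differed by 0.05 ± 0.09 (SE).

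Of the 5 COPI coat genes, 4 were higher in Balb/cBy, with a median difference of 0.200. Copg1, the gamma subunit, read 10.50, 10.69 and 10.55 in Balb/cBy and 10.38, 10.39 and 10.20 in Balb/c, without overlap, by 0.26 ± 0.10 (SE). Copa, the alpha subunit, read 11.51, 11.61 and 11.38 in Balb/cBy and 11.33, 11.02 and 11.32 in Balb/c, also without overlap, by 0.28 ± 0.12 (SE). The limma adjusted p of both was 0.999. Copb1, the beta subunit, differed by 0.20 ± 0.19 (SE), Copb2 by 0.02 ± 0.15 and Arcn1, the delta subunit, by -0.03 ± 0.23. On Balb/c replicate 3, Arcn1 read 11.05 and Copb1 10.86, each the highest of the 6 arrays, and Arcn1 differed by 0.21 without it.

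**Figure D3:**
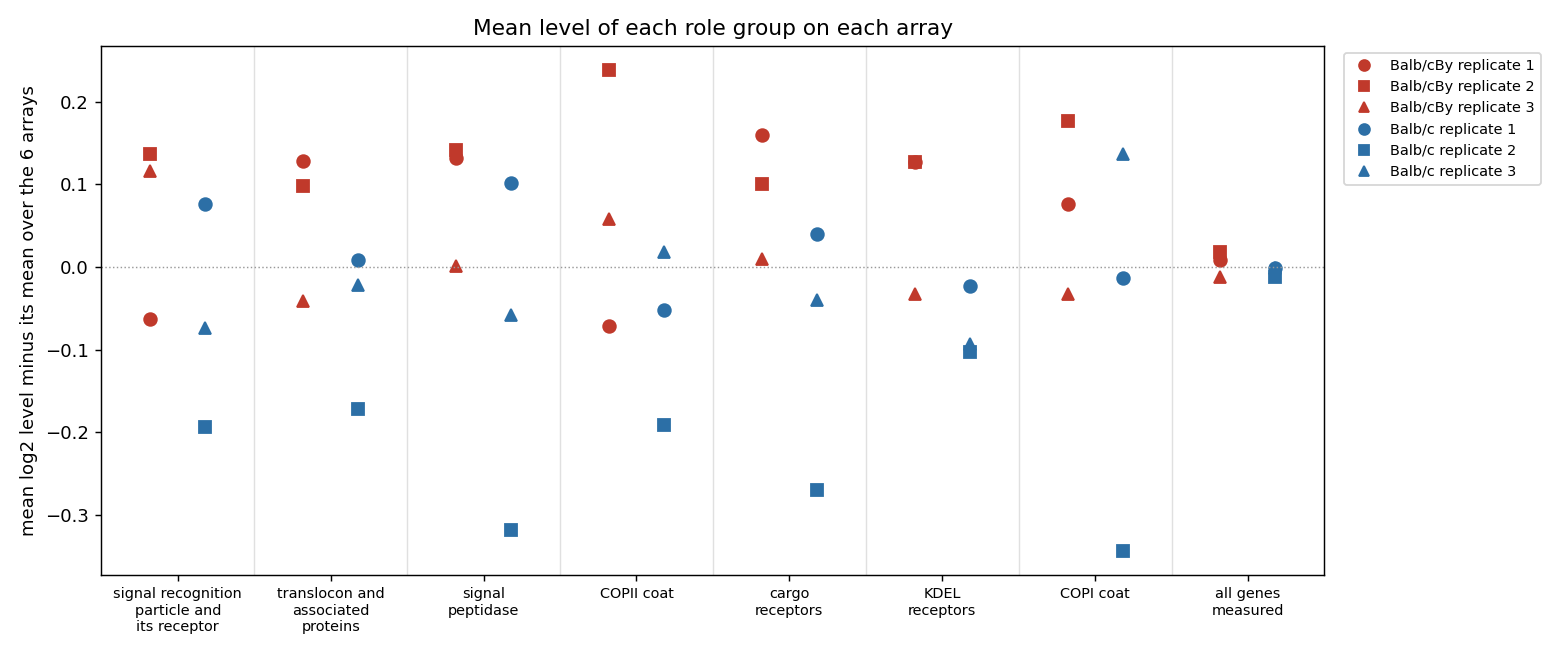
Mean log2 level of each role group on each array, minus the mean of that group over the 6 arrays, with all 22180 genes at the right. Symbols are single arrays, and Balb/c replicate 2 lies lowest in all 7 role groups while the mean of all genes is nearly level.

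By role, Balb/c replicate 2 gave the lowest mean in all 7 groups, from 9.24 for signal peptidase to 10.77 for the cargo receptors. Balb/cBy replicate 1 was the least elevated Balb/cBy array for SRP and COPII, at 9.6 and 10.31, below the highest Balb/c arrays at 9.74 and 10.4. In the other 5 groups the lowest Balb/cBy array was replicate 3. The means of all 7 role groups overlapped between Balb/cBy and Balb/c. The translocon, for example, averaged 10.75, 10.72 and 10.58 in Balb/cBy and 10.63, 10.45 and 10.6 in Balb/c. The KDEL receptors averaged 10.27, 10.27 and 10.11 in Balb/cBy and 10.12, 10.04 and 10.05 in Balb/c, where Balb/c replicate 1 just exceeded Balb/cBy replicate 3.

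Promoters of members were searched for elements bound by factors of the unfolded protein response, the pathway through which a loaded ER raises its own machinery. RefSeq start sites (GRCm38.p6) gave 39 promoters of 37 members, each read over 250 bases before the start on both strands. The XBP1 element TGACGTGG was in 3 of 39, or 7.69%, against 0.563% of 32851 promoters and 0.593% of 21263 coding ones. Its CCACG core, which the longer elements also hold, was in 23 of 39, or 59%, against 28.3% of all promoters and 32.6% of coding ones. The ER stress element (CCAAT, 9 bases, CCACG) was in 0 of 39 and 0.113% of all, and ER stress element II (ATTGG, 1 base, CCACG) in 0 of 39 and 0.0304%. A match is a description of letters and not of binding, and the promoters compared were not matched for base content.

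The stretches around the 3 XBP1 element matches are shown on the strand of the gene, with the match in capitals, as the members whose promoters hold the full element. They lie at chr7:114254681-114254760 (minus strand) for Copb1, chr15:79516328-79516407 (plus strand) for Kdelr3 and chr3:123267466-123267495 (plus strand) for Sec24d. The match starts 28, 30 and 26 bases before the start site. The Sec24d stretch lies inside the RefSeq span of Sec24d itself, and only 30 bases of it are shown for that reason.
Copb1: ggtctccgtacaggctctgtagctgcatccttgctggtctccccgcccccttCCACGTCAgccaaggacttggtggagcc
Kdelr3: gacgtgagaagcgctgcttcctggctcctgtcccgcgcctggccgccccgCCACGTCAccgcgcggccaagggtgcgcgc
Sec24d: cgccTGACGTGGcactagcaacccagagcg
The 3 genes with the full element differed by 0.20, 0.05 and 0.17, with overlap in each, and none was among the 9 members at an unadjusted p under 0.05. Of those 9, Surf4, Copg1 and Lman2 held 1 CCACG core each, and Sec11a, Sec13, Sec61g, Sec23b and Copa held 0. Srprb is shown as the one of those 9 with most CCACG cores, 3 within its 250 bases. Its window is chr9:103202066-103202315 (minus strand), with the cores in capitals and read on either strand.
Srprb: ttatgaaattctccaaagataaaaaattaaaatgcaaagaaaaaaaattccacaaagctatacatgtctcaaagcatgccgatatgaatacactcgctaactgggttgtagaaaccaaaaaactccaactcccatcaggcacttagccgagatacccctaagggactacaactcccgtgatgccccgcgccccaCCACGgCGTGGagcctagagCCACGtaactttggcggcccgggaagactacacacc

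Other genes of the same route, not among the members, had a like median. Of 76 such genes 72 were measured, of which 56 were higher in Balb/cBy, with a median difference of 0.128. At an unadjusted limma p under 0.05, 8 (11.1%) were higher, against 2.59% of all genes. At that level 1 (1.39%) was lower, close to the 1.15% of all genes, and 0 passed the adjusted threshold. The same 2 arrays stood at the ends as for the members. Balb/c replicate 2 was the lowest array for 40 of the 72, and Balb/cBy replicate 2 the highest for 33. Arf1, the GTPase that recruits the COPI coat, read 12.81, 12.84 and 12.80 in Balb/cBy and 12.53, 12.35 and 12.46 in Balb/c, by 0.37 ± 0.09 (SE; limma adjusted p 0.905). Its exchange factor Gbf1 and its GTPase-activating protein Arfgap2 differed by 0.23 ± 0.11 and 0.20 ± 0.09 (SE). Arf1 and Gbf1 have 2 probe sets each, of which the brighter is given.

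Of the ER exit factors, Gosr2, a Golgi SNARE, differed by 0.35 ± 0.13 and Ergic1, of the compartment between ER and Golgi, by 0.25 ± 0.09 (SE). Bcap29, an ER membrane protein, was lower, at 7.37, 7.43 and 7.70 in Balb/cBy and 7.94, 7.76 and 8.04 in Balb/c, by -0.41 ± 0.12 (SE; limma adjusted p 0.999), at a level under that of the olfactory genes. Gorasp2 and Gorasp1, which link Golgi stacks, differed by 0.36 ± 0.12 and 0.27 ± 0.12 (SE), and the Golgi tether Golga2 by 0.07 ± 0.11. Of the insertion factors, Tmem208, Emc1 and Emc3 differed by 0.29, 0.20 and 0.18.

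Of 12 known regulators of secretory pathway genes, 10 (83.3%) were higher in Balb/cBy, against 49.1% of all genes, with a median difference of 0.187. The groups did not overlap for 5 higher and 1 lower, against 4.32% and 3.51% of all genes. Their mean was highest on Balb/cBy replicate 2 (9.89) and lowest on Balb/c replicate 2 (9.51), as for the members. Xbp1, a factor of the unfolded protein response that induces many members, read 11.74, 11.94 and 11.59 in Balb/cBy and 11.44, 11.20 and 11.54 in Balb/c, by 0.37 ± 0.13 (SE; limma adjusted p 0.999). The groups did not overlap, and the value does not separate the spliced form of Xbp1. Creb3l2, known to drive Sec23a in mouse cartilage, differed by 0.55 ± 0.16 and Atf4 by 0.34 ± 0.11 (SE), both without overlap and with a limma adjusted p of 0.999. Creb3l3, a liver factor of the same family named after its values were seen, ran the other way, at 11.51, 11.63 and 11.68 in Balb/cBy and 11.71, 11.74 and 11.91 in Balb/c, without overlap and by -0.18 ± 0.10 (SE; limma adjusted p 0.999).

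Of 16 measured secreted proteins that use this route, 11 were higher in Balb/cBy, and the median difference was 0.0931 (mean 0.112). At an unadjusted limma p under 0.05, 3 (18.8%) were higher and 0 lower, against 2.59% and 1.15% of all genes, and 0 passed the adjusted threshold. Albumin (Alb) and apolipoprotein B (Apob) differed by -0.02 and -0.04. Those 3 were Serpina1d, Serpina1a and Serpina1e, which differed by 0.38, 0.55 and 0.26. They belong to a family of near-identical copies whose probes may read each other. Serpina1d lay under the olfactory level, and the groups of Serpina1a overlapped. The other copies, Serpina1b and Serpina1c, differed by 0.10 each, with overlap. The hepatocyte markers had a median difference of 0.0187. They averaged 13.01 to 13.13 per array, in a range that ends at 14.84, while the members averaged 10.11 to 10.48. What so high a level does to the size of a difference was not tested.

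**Figure D4:**
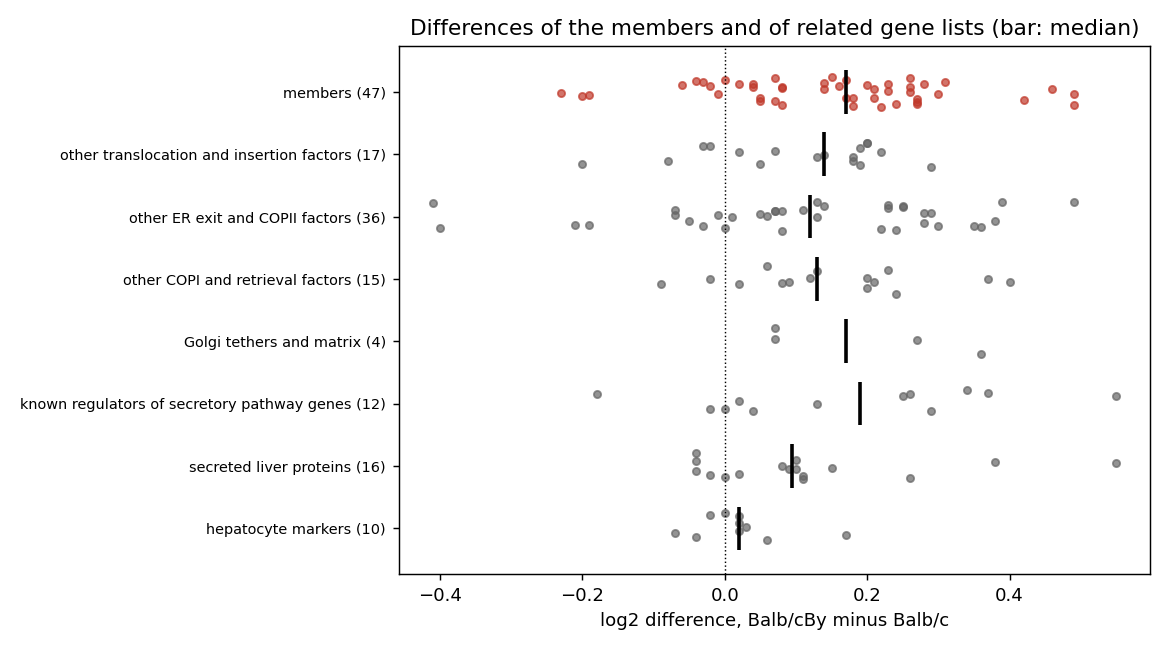
Log2 differences, Balb/cBy less Balb/c, of the members and of related gene lists, 1 point per gene, with the number of genes measured in parentheses. Bars are medians, at 0.169 for the members, 0.116 to 0.172 for the 4 lists of other genes of the route, and 0.0187 for hepatocyte markers.

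Markers of other cell types were read beside these values. Plasma and B cell markers split: Ighm read 10.58, 11.29 and 11.47 in Balb/cBy and 9.54, 9.40 and 9.63 in Balb/c, by 1.59 ± 0.21 (SE; limma adjusted p 0.177), and Jchain was higher by 1.12 ± 0.28 (SE), while Ms4a1, Cd79b and Cd79a were lower without overlap. Ighm has 7 probe sets, of which only the brightest is given. In the whole list 4 of 9 markers were higher and 6 of 9 lay under the olfactory level. The list mean was 7.98 to 8.19 in Balb/cBy and 7.84 to 7.90 in Balb/c. Of 10 stellate cell and fibroblast markers, 9 were higher in Balb/cBy, with a mean of 9.37 to 9.63 against 9.15 to 9.46 in Balb/c and a median difference of 0.178. Of 7 neutrophil markers, 6 were higher, with a mean of 7.21 to 7.36 in Balb/cBy and 6.93 to 7.17 in Balb/c, and 5 of the 7 lay under the olfactory level. Kupffer cell and macrophage markers were higher for 5 of 9, at 9.78 to 10.16 in Balb/cBy and 9.49 to 10.25 in Balb/c. Endothelial markers were higher for 5 of 8, with a median difference of 0.0476 and Kdr lower without overlap. T and NK cell markers were lower for 6 of 7, with a median of -0.0777 and Nkg7 lower without overlap, and cholangiocyte markers for 4 of 5, with a median of -0.0747. The part of these cells in the members' differences was not tested.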

How the data were processed

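Total RNA from liver was measured on Affymetrix whole-transcript arrays, 3 per substrain, labelled from 500 ng with the WT PLUS kit, per the labels' protocols. The authors deposited log2 values made with RMA, per the submitters' processing notes, which corrects background, normalizes the arrays to a common distribution and summarizes probes per probe set. Differences between dim genes are understated by this method. Its software version and the genome build are not given in the sources used here.

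Of 41345 probe sets, 23521 have 1 symbol in the platform annotation and entered the fit, 1814 have several and 16010 none. The titles gave each sample its substrain. Limma 3.58.1 in R 4.3.3 was fitted with the group as its single term and empirical Bayes moderation, with two-sided tests and Benjamini-Hochberg adjustment over all 23521, and was tested on simulated data. Each gene is given by its probe set of highest mean. Per-array values are printed for the 20 members with the smallest p and the leading member of each role, and 3 genes are named per related list. Alb, Apob, Creb3l3, single markers and the genes named for a single array were chosen after their values were seen. No detection measure was used, so the level of olfactory receptor genes stands in for background. The members and lists were chosen with earlier results of these data known. Same-numbered replicates were not treated as pairs in the main fit, since the titles give a replicate number and no pairing. Their deviations from the group means correlated at -0.32, -0.19 and -0.23. With 3 arrays per group these values cannot settle whether the samples were handled in pairs.

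Alternatives were a mean trend with robust moderation, weighting of the arrays, a block for the replicate number, repeated quantile normalization, median centring, brighter probe sets only, averaged probe sets, every probe set, each array left out and, chosen after seeing the data, the 2 arrays of lowest weight left out. Promoters came from RefSeq, GRCm38.p6.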

Additional observations from a re-analysis of the deposited data

How the results depend on the processing

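No member passed the adjusted threshold under any of the 15 alternatives, and the median difference of the members stayed above 0 in all of them (0.0889 to 0.199). At an unadjusted limma p under 0.05 the count of members higher in Balb/cBy was 5 with a mean trend and robust moderation (2.37% of all probe sets), 5 after repeated quantile normalization (2.52%) and 4 with the replicate number as a block (1.59%), against 9 without it (2.64%). With each array left out it ranged from 3 to 11 (1.3% to 5.17%). The count of lower members at that level was 1 with array weights (3.51%) and 1 after repeated quantile normalization (1.77%), and 0 to 1 with each array left out (0.757% to 3.04%). Over all probe sets, 31 passed with array weights, 16 without the 2 arrays of lowest weight (Balb/cBy replicate 1 and Balb/c replicate 3), and 0 to 4 with each array left out. Members without overlap numbered 10 to 19 higher (6.78% to 12.8% of all probe sets) and 1 to 3 lower (6.14% to 14.1%) with each array left out, where fewer arrays have to clear each other, and 18 higher (19.9%) and 2 lower (23.3%) without those 2 arrays. After median centring they numbered 7 higher (4.42%) and 0 lower (3.49%), after repeated quantile normalization 9 higher (4.64%), and with averaged probe sets 2 lower (3.45%).

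The sign held in every alternative for 29 members and changed in at least 1 for 18, and the cause was not tested. With array weights the differences became 0.00191 (Srp19), -0.0496 (Spcs3), -0.0648 (Sec11c), 0.0105 (Sec24a), -0.0987 (Lman1), -0.00196 (Mcfd2) and -0.0544 (Copb2). After repeated quantile normalization they became 0.00450 (Srp19), -0.0458 (Sec23a), -0.0235 (Sec24b), -0.0218 (Lman1), -0.00764 (Mcfd2) and -0.0454 (Copb2). Without the 2 arrays of lowest weight they became 0.0702 (Sec62), 0.169 (Sec24a), -0.0234 (Kdelr3) and 0.126 (Arcn1). With each array left out, the ranges were -0.0765 to 0.0533 (Srp19), -0.132 to 0.320 (Spcs3), -0.0502 to 0.171 (Sec11c), -0.143 to 0.102 (Sec24a), -0.160 to 0.203 (Lman1), -0.0314 to 0.128 (Mcfd2), -0.145 to 0.102 (Copb2), -0.146 to 0.118 (Sec23a), -0.00677 to 0.0889 (Kdelr3), -0.201 to 0.0520 (Sar1b), -0.00725 to 0.124 (Sec24c), -0.138 to 0.0613 (Tmed2), -0.0423 to 0.183 (Srp14), -0.294 to 0.209 (Arcn1), -0.0273 to 0.304 (Srp72), -0.366 to 0.0135 (Sec62) and -0.347 to 0.0318 (Sec63).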

Other observations

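Balb/c replicate 3 was the highest array for 8 members and the lowest for 9, and the highest for 12 and the lowest for 15 of the 72 other genes of the route. Some of those highest there, named after their values were seen, stood apart from the other arrays. Mia2, which with Mia3 exports cargo too large for ordinary COPII vesicles, read 9.46, 9.46 and 9.45 in Balb/cBy and 9.69, 9.26 and 10.61 in Balb/c. Mia3 read 8.92, 8.75 and 8.95 in Balb/cBy and 8.81, 8.68 and 9.71 in Balb/c. Emc2, a subunit of the ER membrane protein insertion complex, read 10.52, 9.95 and 9.99 in Balb/cBy and 10.56, 9.40 and 11.08 in Balb/c. Their differences were -0.40, -0.19 and -0.20. Apob and the clotting factor gene F5 were also highest on that array, at 13.65 and 11.91.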
